A study of Homo sapiens with 2 samples.

Results

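The miR-99/100, let-7 and miR-125 genes lie side by side in 3 clusters of the human genome, and 10 mature miRNAs of these clusters were followed here in exosomes of a liver cancer cell line. They are hsa-miR-125a-5p, hsa-miR-125a-3p, hsa-miR-125b-5p, hsa-miR-125b-1-3p, hsa-miR-125b-2-3p, hsa-miR-99a-5p, hsa-miR-99b-5p, hsa-miR-99b-3p, hsa-miR-100-5p and hsa-let-7e-5p (the human prefix hsa is dropped below), 10 of 2565 miRNA probes. The 10 were chosen by name from the scanner output and not by a cutoff on their values, with earlier results of these data known. Exosomes, the small vesicles that cells release, were pelleted from the medium of HuH-7, an established line grown from a human liver tumour. One group was HuH-7-P exosome (1 array, the P array below) and the other was HuH-7-M exosome (1 array, the M array). What the letters P and M stand for, and how either culture was derived, the labels leave unsaid. By its title the series concerns hepatocellular carcinoma lines that metastasise strongly within the liver, and the comparison asks which vesicle miRNAs differ between the cultures. Both cultures were maintained with 10% fetal bovine serum and changed to advanced DMEM before collection, and the vesicles were pelleted at 110000 g for 70 min at 4 °C. The extraction label speaks of cells, whereas the source label speaks of exosomes. Neither a treatment nor a genetic change is named for either group. With n = 1 per group there was no replicate and no test between the cultures, so every difference below compares 2 arrays.

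A miRNA is cut from a hairpin precursor whose 5p and 3p arms can each become a mature miRNA, and it represses messenger RNAs that pair with its seed, bases 2 to 8 from the 5′ end. The let-7 and miR-125 families are the vertebrate relatives of let-7 and lin-4, the worm miRNAs that time development. let-7 represses growth and stem cell genes such as LIN28, HMGA2 and RAS and is often low in tumours. miR-99 and miR-100 repress genes of the mTOR pathway, and miR-125 family members act in blood formation and in cancer in either direction. Each of the 3 genomic clusters holds 1 hairpin of each family.

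The mature sequences show why the members are treated by seed and by arm, because members of a family can differ by a single base. All 10 members matched a mature miRNA of RefSeq (GRCh38.p14), and capitals mark the seed. miR-125a-5p and miR-125b-5p share a seed, miR-99a-5p, miR-99b-5p and miR-100-5p share another, and let-7e-5p carries the seed common to all 9 let-7 family 5p arms on the array. The 4 3p members each have a seed of their own among the members.
miR-125a-5p: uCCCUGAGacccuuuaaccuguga
miR-125b-5p: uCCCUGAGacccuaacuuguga
miR-99a-5p: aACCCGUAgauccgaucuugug
miR-100-5p: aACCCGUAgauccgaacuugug
miR-99b-5p: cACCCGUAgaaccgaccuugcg
let-7e-5p: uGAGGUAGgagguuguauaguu
miR-125a-3p: aCAGGUGAgguucuugggagcc
miR-125b-1-3p: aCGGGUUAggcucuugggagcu
miR-125b-2-3p: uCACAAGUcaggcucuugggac
miR-99b-3p: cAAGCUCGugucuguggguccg

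Counted from 1 at the 5′ end, with the first-named miRNA's base first, miR-99a-5p and miR-100-5p differ by U16A alone. miR-99a-5p and miR-99b-5p differ by A1C, U11A, U16C and U21C. miR-125a-3p and miR-125b-1-3p are identical at 18 of 22 bases and differ by A3G, G7U, U11C and C22U. let-7e-5p differs from let-7a-5p, the let-7 arm of the chromosome 11 cluster, by G9U alone. let-7a-5p is also made from hairpins on chromosomes 9 and 22, so its spot does not read that cluster alone. How far a probe also binds such a near-identical miRNA was not tested.

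The chromosome 19 cluster holds 5 of the 10 members: both arms of miR-99b, let-7e-5p and both arms of miR-125a. Its hairpins lie on the plus strand within 728 bases, inside the bounds of the protein-coding gene SPACA6 and of SPACA6-AS1, a long non-coding RNA gene. The mature miRNAs are at chr19:51692618-51692639 for miR-99b-5p, chr19:51692656-51692677 for miR-99b-3p, chr19:51692793-51692814 for let-7e-5p, chr19:51693268-51693291 for miR-125a-5p and chr19:51693306-51693327 for miR-125a-3p. The chromosome 11 cluster (miR-100, let-7a-2, miR-125b-1; minus strand) spans 52552 bases within the long non-coding RNA gene MIR100HG, with miR-100-5p at chr11:122152275-122152296 and miR-125b-1-3p at chr11:122099769-122099790. The chromosome 21 cluster (miR-99a, let-7c, miR-125b-2; plus strand) spans 51237 bases within MIR99AHG, with miR-99a-5p at chr21:16539101-16539122 and miR-125b-2-3p at chr21:16590290-16590311. miR-125b-5p is made from both MIR125B1 (chr11:122099809-122099830) and MIR125B2 (chr21:16590253-16590274), so its spot cannot tell these clusters apart.

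Signal is the Cy5 spot median less the BLANK mean over 320 spots, in intensity units. The BLANK spots had a mean of 59.7 ± 1.64 on the P array and 58.7 ± 1.63 on the M array (SD over spots of 1 array). The BLANK limit, drawn from the trimmed BLANK spots at their mean plus 2 SD, is a signal of 2.60 on the P array and 2.42 on the M array, and a probe over it counts as above background. A miRNA was called measured where it passed on both arrays. A stricter limit came from 85 spots labelled No Probe, which were brighter than BLANK by 20.1 and 22.3 on average. It lies at a signal of 27.2 on the P array and 31.1 on the M array. The dimmest No Probe spot had a signal of 8.96 on the P array and 5.82 on the M array, so all these spots exceed the BLANK limit. A measured miRNA is thus brighter than the BLANK spots, and not necessarily brighter than the No Probe spots. Normalized differences are log2 M minus P after background correction with an offset of 50 and quantile normalization. The offset pulls dim probes toward 0. Brightness also depends on each probe, so signals are set against the limits and between arrays, and their sizes do not rank miRNAs by amount. The number of arrays limits the precision.

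Most members lay below the No Probe limit. Of the 10, 7 were measured on both arrays, 1 was above background on the P array only and 2 on neither; 62.1% of all miRNA probes were measured. Of the 10, 1 (miR-125a-3p) passed the No Probe limit of each array, against 30.8% of all probes. Among the 7 measured, let-7e-5p and miR-125b-2-3p were dimmer than the dimmest No Probe spot of each array. All 5 members from chromosome 19 were measured, against 1 of 3 from chromosome 11 and 2 of 3 from chromosome 21, where miR-125b-5p counts under both. Over all arms of each cluster the counts were 5 of 6, 2 of 6 and 2 of 6. No test of this difference was made.

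**Figure D1:**
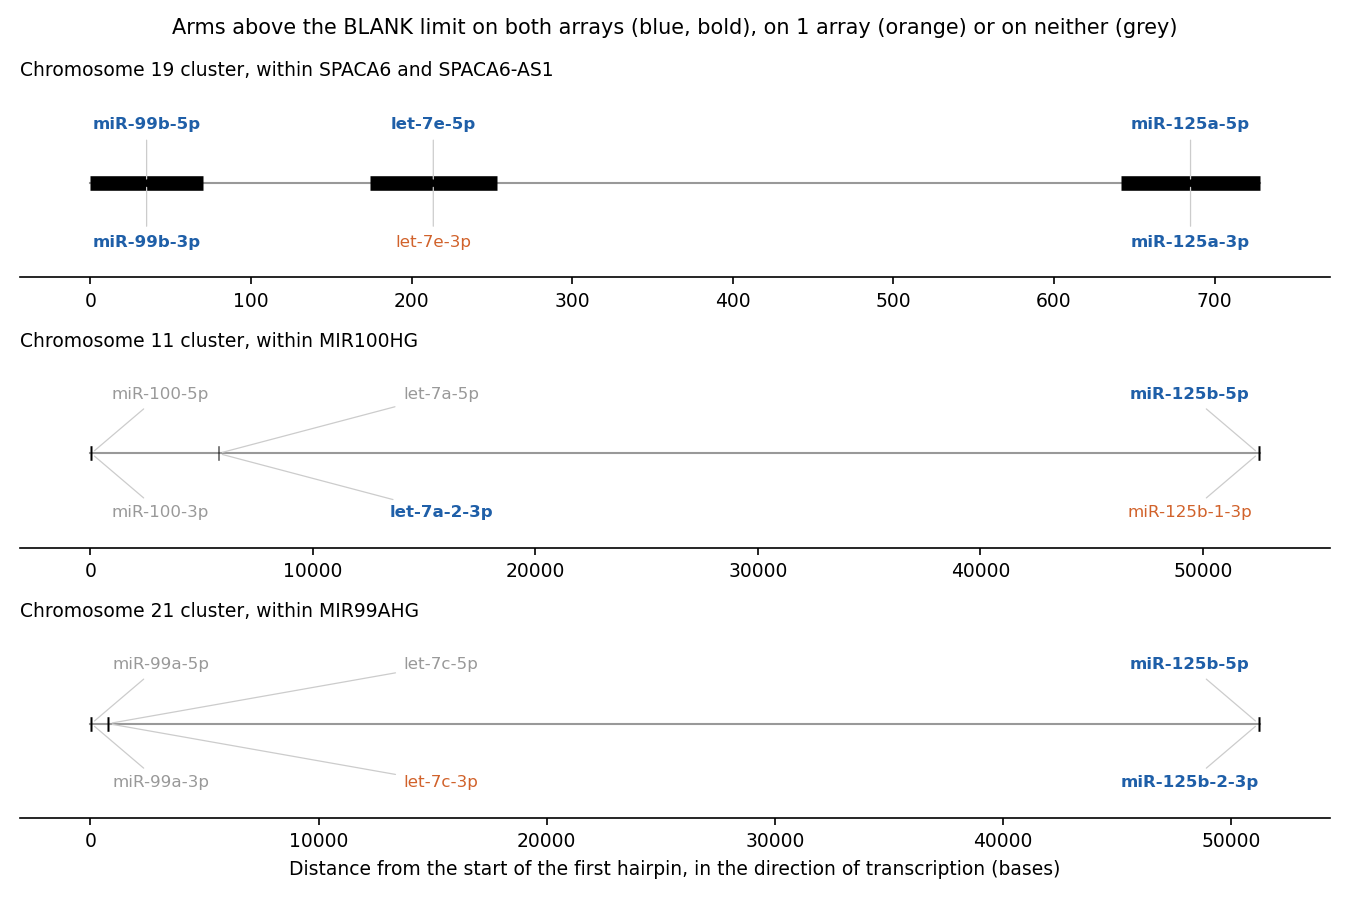
Hairpins (black) of the 3 clusters drawn to scale, with the distance in bases from the first hairpin on the horizontal axis of each panel; arm names are blue and bold where the probe was above the BLANK limit on both arrays, orange on 1 array and grey on neither. On chromosome 19, 5 of 6 arms are blue, against 2 of 6 on chromosome 11 and 2 of 6 on chromosome 21.

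miR-125a-3p, the arm of the MIR125A hairpin that usually is the less abundant, was the one member over the No Probe limit on both arrays. Its spot median was 349 on the P array and 253 on the M array, or signals of 290 and 194. Before normalization the log2 difference of these signals was -0.57, and the normalized difference was -0.49, or 1.40-fold lower. Of the 1593 measured miRNAs, 63 (3.96%) had a difference this low or lower. Only 790 probes passed the No Probe limit on both arrays, as miR-125a-3p did. The offset pulls the dimmer ones toward 0, and the rank among probes of like brightness was not computed. Spots of 1 control probe on 1 array had a log2 SD of 0.18 with the offset of 50. This gives a spread of 0.25 for a difference between 2 single spots, so the normalized difference is larger than the spread within an array. Spread between cultures, and between arrays from preparation to scanning, is not in that value. The S-Probe24 control, with 8 spots of similar brightness (spot medians of 235 ± 12.6 on the P array and 230 ± 10.5 on the M array), differed by -0.03 between the arrays, and S-Probe21 (285 ± 16.7 and 321 ± 62.2) by 0.22. These control differences are log2 ratios of signals before normalization, the scale on which miR-125a-3p read -0.57. Some controls differed by more in size than that and in the opposite direction. They were S-Probe26 by 0.94, S-Probe27 by 1.02, S-Probe28 by a value between these, and Spike Control 2 by 0.66. Spike Control 1 differed in the opposite direction by 0.51, somewhat less in size. Over the 8 control probes with several spots and a mean over the No Probe limit of each array, the log2 ratio M over P ran from -0.03 to 1.02 with a median of 0.59. The part of such shifts between the arrays in the miR-125a-3p difference was not tested.

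The MIR125A hairpin shows the pair of arms, with the mature 5p and 3p miRNAs in capitals (GRCh38.p14, chr19:51693254-51693339, plus strand).
MIR125A: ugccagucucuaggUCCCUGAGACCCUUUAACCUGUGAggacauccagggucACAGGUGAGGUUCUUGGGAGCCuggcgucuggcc

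miR-125a-5p, the usual guide arm of this hairpin and the one with the miR-125 seed, had signals of 15.7 on the P array and 13.1 on the M array. It was above the BLANK limit on both arrays and below the No Probe limit on both. Its signal differed by -2.58 units, M minus P, close in size to the 2.31 that the BLANK spread gives a difference between the arrays, and its normalized difference was -0.04. The arms therefore read -0.49 and -0.04 on the normalized scale, and the difference between them has no test with 1 array per culture.

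miR-125b-5p, which has the same seed and comes from chromosomes 11 and 21, had signals of 12.2 on the P array and 12.5 on the M array. The arrays differed by 0.28 units, well inside the BLANK spread of 2.31, and the normalized difference was 0.02. miR-125b-2-3p, the 3p arm from chromosome 21, had signals of 6.01 and 5.09, a normalized difference of -0.01. miR-125b-1-3p, the 3p arm from chromosome 11, had a signal of 4.32 on the P array and 1.73 on the M array. Only the P array value was above the BLANK limit, a bound of 1.03-fold higher there on the scale with the offset. That bound makes no allowance for the spread of spots. The signal differed by -2.59 units, close in size to the BLANK spread of 2.31.

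**Figure D2:**
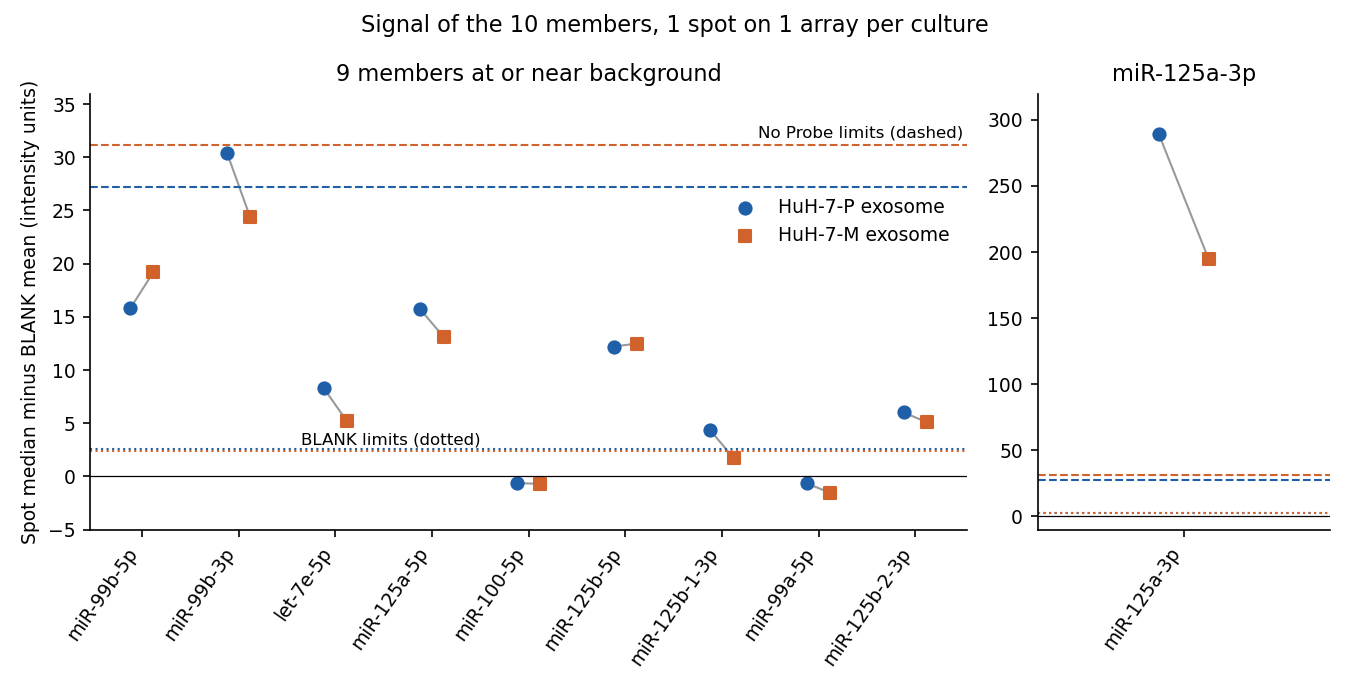
Signal (spot median minus BLANK mean, intensity units, linear axes) of each member on the P array (blue circles) and the M array (orange squares), with the BLANK limit (dotted) and No Probe limit (dashed) of each array in its colour. miR-125a-3p, on an axis of its own, went from 290 to 194, and of the other 9 members only miR-99b-3p on the P array (30.4) exceeded its array's No Probe limit.

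Of the miR-99/100 family, the chromosome 19 members were measured and the others were not above background. miR-99b-3p, whose seed is not that of the 5p arms, had signals of 30.4 on the P array and 24.4 on the M array. The P array value exceeded that array's No Probe limit and the M array value did not. The signal differed by -6.07 units, which in size exceeds the BLANK spread of 2.31 and not the 9.20 that the No Probe spots give, and the normalized difference was -0.10. miR-99b-5p, the arm with the miR-99/100 seed, had signals of 15.8 and 19.2 and was the member with the highest normalized difference, 0.08. Its signal was higher on the M array by 3.43 units, 1.48 times the BLANK spread and less than the No Probe spread of 9.20. The arms of the MIR99B hairpin thus lay on opposite sides of 0, each by less than the 0.25 spread between single spots. That spread pools control probes whatever their brightness, so it may not be the spread of probes this dim.

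miR-99a-5p (chromosome 21) had signals of -0.67 on the P array and -1.55 on the M array, and miR-100-5p (chromosome 11) had -0.62 and -0.71. Both lay below the BLANK mean on both arrays, so neither was well above background and no fold is given. Their sequences differ by U16A alone.

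let-7e-5p, the let-7 of the chromosome 19 cluster, had signals of 8.32 on the P array and 5.19 on the M array. Both were above the BLANK limit and below the No Probe limit. Its signal differed by -3.13 units, which in size exceeds the BLANK spread of 2.31 and not the No Probe spread of 9.20. The normalized difference was -0.07. Without an offset the same readings stood further apart, at -0.64 in the authors' deposited table and -0.56 after subtraction of the BLANK mean and quantile normalization, values that divide small signals by each other.

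No member differed by 2-fold among the 7 measured. The share past 2-fold over all 1593 measured miRNAs was 2.13%, with 7 higher and 27 lower, so a count of 0 in 7 is near that background. The median difference of the 7 was -0.04, with 5 below 0 and 2 above, beside a median of 0.01 over all measured miRNAs (quartiles -0.07 and 0.10). Of the 7, 5 lay within or at the edges of those quartiles, and miR-125a-3p and miR-99b-3p lay below them. On arrays scaled to the Spike Control spots, which were brighter on the M array (log2 ratio 0.59), all 7 measured members were below 0, miR-125a-3p passed 2-fold lower (-1.06) and the median of all measured miRNAs moved to -0.58. There 4.58% of all measured miRNAs were at least 2-fold lower, and relative to the moved median miR-125a-3p stayed apart from the other 6, which read -0.70 to -0.51. The split of all calls also moved with the scaling, to 19 higher and 26 lower without normalization, 20 and 24 when arrays were centred on the median measured miRNA, and 2 and 73 on the Spike Control scale.

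**Figure D3:**
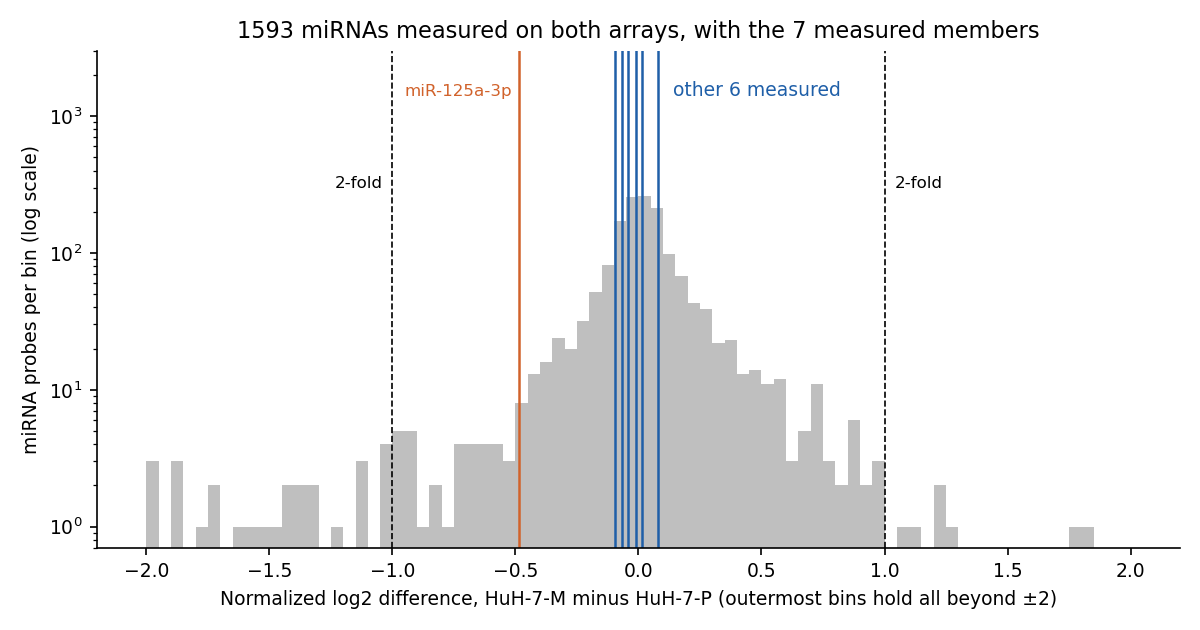
Histogram (log count axis) of the normalized log2 differences, M minus P, of the 1593 miRNAs measured on both arrays, with vertical lines at the 7 measured members and dashed lines at 2-fold. miR-125a-3p lies at -0.49, where 3.96% of the miRNAs are as low or lower, and the other 6 members lie between -0.10 and 0.08.

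**Figure D4:**
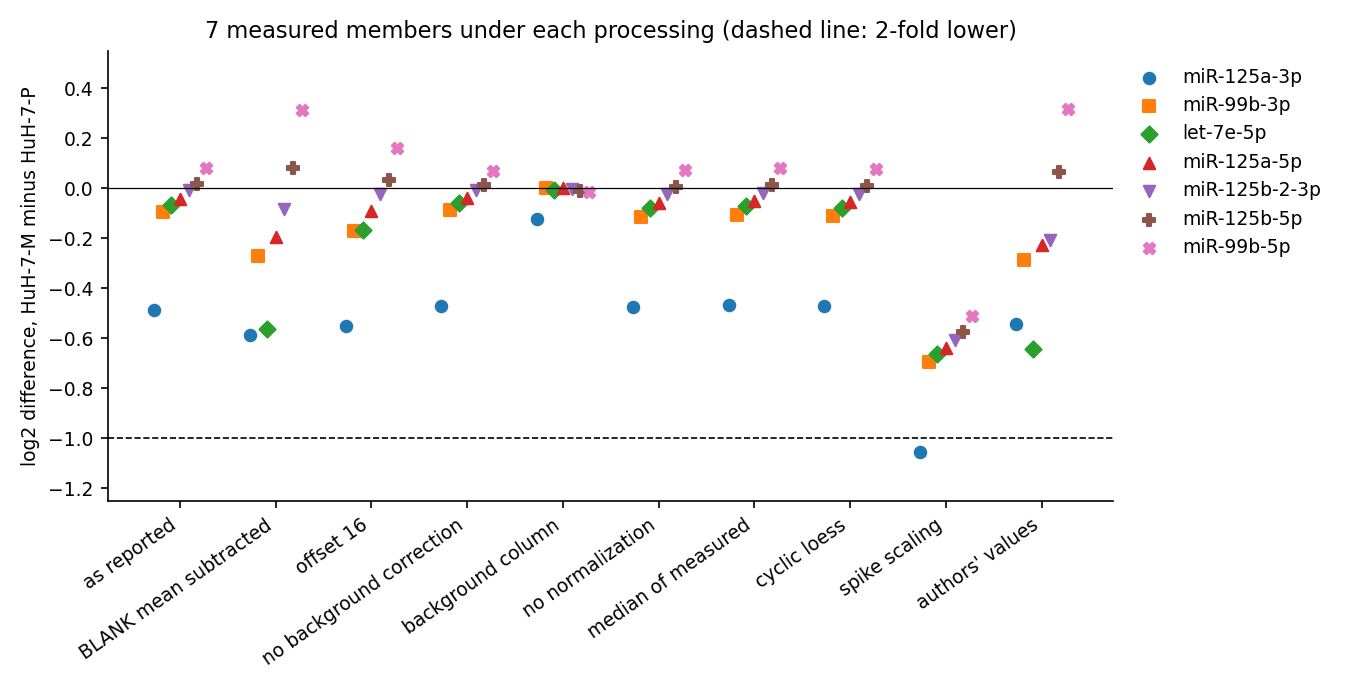
Log2 difference of each of the 7 measured members (symbols) under the reported processing and 9 alternatives (horizontal axis), with a dashed line at 2-fold lower. miR-125a-3p is below 0 in each, from -1.06 on the Spike Control scale to -0.12 with the scanner's background column, and miR-99b-5p lies above 0 in each except with the background column (-0.02) and on the Spike Control scale (-0.51).

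The direction of miR-125a-3p held under each alternative tried, and its size did not. It read -0.54 in the authors' deposited table, where its values were 238 and 163, and -0.47 after cyclic loess. The 8 members with a value in that table stood there under their own identifiers. With the scanner's background column the value was -0.12, within the spread of single spots. That column read 313 on the P array and 260 on the M array at the miR-125a-3p spot, close to the spot medians of 349 and 253. On the M array it thus exceeded the spot median itself, so the -0.12 is a poor measure of the size.

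The other arms of the 3 clusters and the other let-7 5p arms lay below the No Probe limit on both arrays. Of the 7 other cluster arms listed, 1 was measured, let-7a-2-3p, the 3p arm of the chromosome 11 let-7, at signals of 7.48 on the P array and 6.83 on the M array (normalized difference -0.00). let-7e-3p (-0.81 and 4.25) and let-7c-3p (2.23 and 4.18) were above the BLANK limit on the M array only. The bound was 1.03-fold higher there in both cases, with no allowance for the spread of spots. The signals differed by 5.06 units for let-7e-3p and 1.94 for let-7c-3p, beside a BLANK spread of 2.31. let-7c-5p (-6.28 and -3.16), let-7a-5p (-6.03 and -5.41), miR-99a-3p (-3.09 and -0.58) and miR-100-3p (-7.51 and -0.94) were below the BLANK mean on both arrays. Of the 6 let-7 family 5p arms outside the clusters, let-7b-5p was above the limit on the M array (1.23 and 5.45) and none was measured. let-7e-5p was thus the 1 measured arm among 9 with the let-7 seed.

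Base composition moved with detection across the array. For 2253 of the 2565 miRNA probes (87.8%) a RefSeq mature sequence was matched, and the share measured on both arrays was 5.01% of 399 probes with a G+C content under 40%, 44.1% from 40% to under 50%, 78.3% from 50% to under 60%, 93.8% from 60% to under 70% and 97.8% at 70% or more. let-7e-5p has 40.9% G+C and let-7a-5p 36.4%. miR-99b-5p and miR-99b-3p have 63.6% each, and miR-99a-5p and miR-100-5p, which were not above background, have 50%. miR-125a-5p and miR-125b-5p have 50% as well and were measured. miR-125a-3p and miR-125b-1-3p both have 59.1%, and the first passed the No Probe limit on both arrays while the second was above the BLANK limit on the P array only. The part of base composition in which members were detected was not tested.

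**Figure D5:**
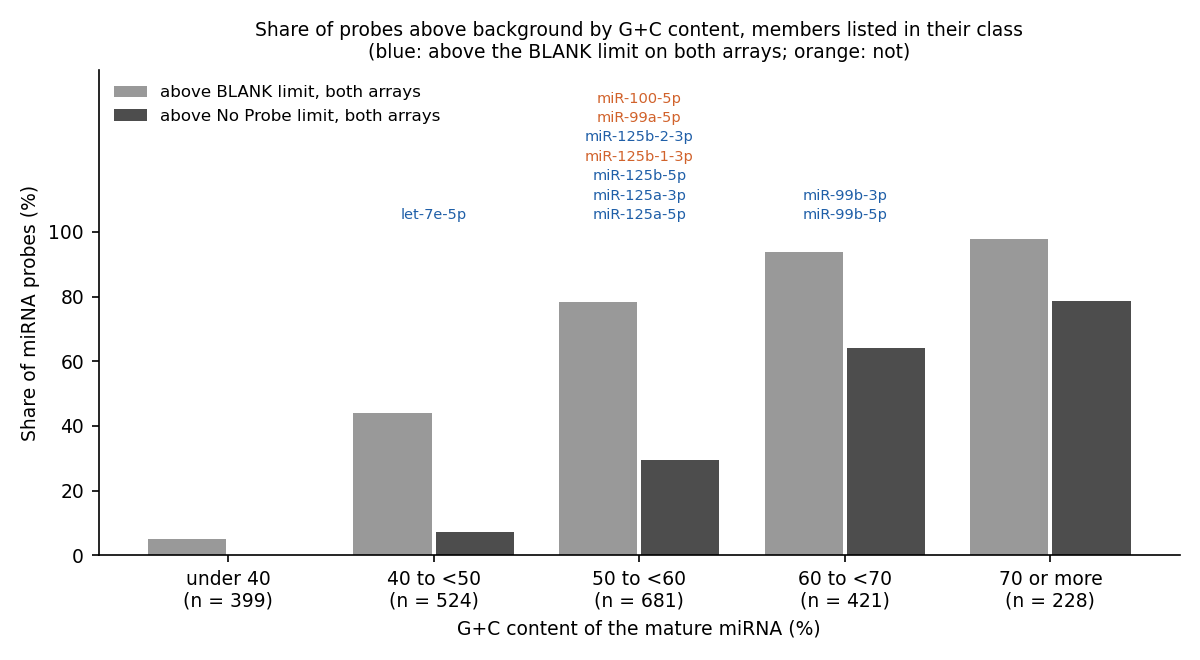
Bars give the share of miRNA probes (%) above the BLANK limit (light) and above the No Probe limit (dark) on both arrays in 5 classes of G+C content, with the number of probes under each class; members are named above their class, in blue where measured and in orange where not. The light bars go from 5.01% under 40% to 97.8% at 70% or more, and 7 of the 10 members fall in the class from 50% to under 60%.

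Of 6 hepatocyte miRNAs, the markers of the labelled cell type, 5 were measured, and 2 of these passed the No Probe limit of each array. Over all miRNA probes, 62.1% were measured and 30.8% passed the No Probe limit of each array. In the lists of other cells, 1 endothelial and stromal miRNA (miR-214-3p) and 1 neural and muscle miRNA (miR-124-3p) passed it. No red cell or leukocyte miRNA did. The dominant miRNA of liver, miR-122-5p, had signals of 39.98 on the P array and 67.7 on the M array. The summed signal of the 6 was 116 and 153, and much of that rise was miR-122-5p. The hepatocyte list did not move 1 way: of the 5 measured, 3 had a normalized difference above 0 and 2 below. miR-885-5p (29.8 and 36.9) and miR-215-5p (7.2 and 9.3) were higher on the M array. miR-192-5p (27.8 and 24.0) and miR-194-5p (13.8 and 10.8) were lower. miR-148a-3p (-2.27 and 4.36) was above the BLANK limit on the M array only. Of markers of other cells, 2 of 3 red cell miRNAs (summed signal 36.1 and 34.8), 3 of 4 leukocyte miRNAs (21.2 and 20.9), 2 of 5 endothelial and stromal miRNAs (57.8 and 77.7) and 4 of 5 neural and muscle miRNAs on the array (175 and 75.1) were measured. In the last list the muscle miRNA miR-206 had 109 and 17.3, and the neural miRNA miR-124-3p had 46.5 and 47.4, both named after their values were seen. In the lists of other cells, miR-214-3p had signals of 43.99 on the P array and 61.3 on the M array. The red cell marker miR-486-5p had 30.6 and 28.5, and the leukocyte marker miR-223-3p had 8.38 and 7.79. Also measured were miR-451a (red cell), miR-150-5p and miR-155-5p (leukocyte), miR-199a-5p (endothelial and stromal), and miR-133a-3p and miR-133b (muscle). The leukocyte marker miR-142-3p, the red cell marker miR-144-3p, the endothelial and stromal markers miR-126-3p and miR-145-5p and the neural marker miR-9-5p were not above background on either array. The part of other cells in the member values was not tested.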

How the data were processed

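Per the labels, RNA was labelled with Cy5 using the 3D-Gene kit and read on 1 one-colour array per culture. For 3200 spots, the deposited scanner output lists intensity at 635 nm, a spot median and a background median per the file headers; no background had been subtracted. The deposited value table of intensity holds, as rebuilt from the scanner output to a relative tolerance of 1e-05, the spot median minus the trimmed BLANK mean, scaled to a median of 25 and left blank for dim spots. Which software made it was not given in the sources used.

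Names are those of the scanner output. The BLANK limit left out the top and bottom 5% of the BLANK spots. Differences used normexp on the BLANK spots (nec, limma 3.58.1, R 4.3.3, offset 50), quantile normalization over miRNA probes and log2. These steps were tested on simulated data in which only bright probes were changed, so that test does not cover the dim members. The background column correlated with the spot median (r = 0.992 on each array, log scale) and was used only as an alternative. No bad-spot entry fell on a member. All 10 members, and list genes on the array of the 3 clusters or above background, are named. Members and lists were chosen with earlier results of these data known. Alternatives covered background, scaling, filters and the deposited table. Promoters were not used here.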

Additional observations from a re-analysis of the deposited data

How the results depend on the processing

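With 1 array per culture, no replicate could be left out, and no test gave a p-value. No paired analysis was possible because each culture had 1 array. Of the 7 measured members, miR-125a-3p, let-7e-5p and miR-125b-2-3p stayed below 0 in every alternative that gave them a value. The median of the measured members (-0.04) moved to -0.64 on the Spike Control scale, and was -0.49 above the No Probe limit, where 1 member, miR-125a-3p, was left. The count of members at least 2-fold apart (0) was 1 on the Spike Control scale and 0 elsewhere. The count over all measured miRNAs (34) was 122 with the BLANK mean subtracted, 55 with an offset of 16, 75 on the Spike Control scale and 128 in the authors' values. let-7e-5p moved beyond the spread of single spots under BLANK mean subtraction (-0.56) and in the authors' deposited table (-0.64), neither of which adds an offset. A limit from the BLANK spots of each probe's own block, chosen after seeing the data, kept 7 members measured.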

Other observations

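The passenger arms of other let-7 hairpins and the miR-10 relatives of miR-99 and miR-100 give further context. Of 8 let-7 passenger arms, 3 were measured, against none of the 6 let-7 family 5p arms outside the clusters. let-7d-3p had signals of 23.2 on the P array and 22.4 on the M array, let-7b-3p 12.8 and 14.6, and let-7f-1-3p 11.2 and 11.6. Their normalized differences lay between 0.00 and 0.06. miR-98-3p was above the BLANK limit on the P array only (4.63 and 1.29). None of 4 miR-10 arms (miR-10a and miR-10b, both arms) was above background on either array, with signals of -5.65 to -0.64.

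miR-887-5p, chosen after its value was seen among 2 miRNAs that share at least 10 bases in a row with miR-125a-3p (CUUGGGAGCC), had spot medians of 105 on the P array and 85.2 on the M array, a normalized difference of -0.29. The other, miR-125b-1-3p, is described above.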
